A study of Arabidopsis thaliana with 18 samples.

Results

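The NF-YA genes encode 1 of the 3 subunits of NF-Y, a transcription factor that binds the CCAAT box of promoters. All 10 members of Arabidopsis thaliana, NF-YA1 to NF-YA10, were taken by gene identifier from the 33602 gene models counted in each library. The family was chosen by measured values: the counts of NF-YA2 in the untreated and starved libraries, whose starvation response differed between genotypes. Its values are therefore given as a description without a test, while the other 9 members were tested throughout. Whole seedlings grown in liquid medium were sampled from wild type (Col-4) and from nlp2-2, a single T-DNA insertion line labelled a knock-out of NLP2 (AT4G35270), a gene for a NIN-like transcription factor. The untreated groups were 10 days old. The starved groups had then spent 3 days without nitrogen and were 13 days old. The nitrate groups were starved seedlings of 13 days given 3 mM nitrate for a time labelled 30, with no unit stated. Each of the 6 groups held 3 libraries, named as biological replicates in the design. Age moves with starvation, and the nitrate groups had no partner left in nitrogen-free medium for the same time, so these factors cannot be told apart from the treatments. No second allele or complemented line was analysed here.

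NF-YB and NF-YC subunits form a histone-fold dimer, and an NF-YA subunit joins it and contacts the CCAAT box. In plants each subunit is encoded by many genes, and the NF-YA transcripts are textbook targets of the microRNA miR169, which guides their cleavage. In nitrogen-starved Arabidopsis the level of miR169 is known to fall and that of several NF-YA transcripts to rise. Single members are known for other roles: NF-YA2 and NF-YA10 for root and leaf growth, NF-YA5 for drought tolerance, NF-YA3 and NF-YA8 for early embryo development, NF-YA1, NF-YA6 and NF-YA9 for embryo and gametophyte development, and NF-YA4 for the response to stress in the endoplasmic reticulum.

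The sequences of miR169 and of its sites are shown because they divide the family. RefSeq (TAIR10.1) annotates 14 miR169 loci, whose mature guide strands fall into 4 distinct sequences. They are given 5′ to 3′ as DNA letters with the seed, bases 2 to 8, in capitals.
miR169a-5p: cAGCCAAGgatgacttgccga
miR169b-5p and miR169c: cAGCCAAGgatgacttgccgg
miR169d, miR169e, miR169f-5p and miR169g-5p: tGAGCCAAggatgacttgccg
miR169h to miR169n: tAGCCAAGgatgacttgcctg
The 4 sequences hold 2 seeds, AGCCAAG and GAGCCAA, which are the same letters shifted by 1 base.

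A stretch of 21 bases with at most 4 positions outside Watson-Crick pairing to a miR169 was found in the 3′ UTR of 8 NF-YA genes. Among 31346 genes scanned, 20 held such a stretch (0.0638%), so 12 lay outside the family. The 8 sites are given 5′ to 3′ on the strand of the transcript, in TAIR10.1 coordinates, with the match to the seed in capitals.
NF-YA1 (chr5:4051058-4051078, reverse strand): ccggcaaatcattCTTGGCTt
NF-YA2 (chr3:1676806-1676826, reverse strand): aggcaaatcatctTTGGCTCa
NF-YA3 (chr1:27405638-27405658, reverse strand): aggggaagtcatcCTTGGCTa
NF-YA5 (chr1:20217494-20217514, reverse strand): acgggaagtcatcCTTGGCTa
NF-YA6 (chr3:4644334-4644354, forward strand): aagggaagtcatcCTTGGCTa
NF-YA8 (chr1:6050422-6050442, reverse strand): aagggaagtcatcCTTGGCTg
NF-YA9 (chr3:7328379-7328399, forward strand): gcggcaattcattCTTGGCTt
NF-YA10 (chr5:1986750-1986770, forward strand): aggcaaatcatctTTGGCTCa
The sites of NF-YA2 and NF-YA10 were identical and were closest to miR169d. In all 8 sites the seed was fully paired, and 2 to 4 of the 21 positions lay outside Watson-Crick pairing, G:U pairs included. NF-YA4 (AT2G34720, chr2:14649706-14651709, reverse strand) and NF-YA7 (AT1G30500, chr1:10804450-10806428, reverse strand) held no such stretch, and their closest matches had 8 and 6 such positions.

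The libraries held 14684639 to 25545031 counted reads, of which 2584 to 13117 fell on the NF-YA genes. NF-YA5 was the member with the fewest reads, 28 to 236 per library. All 10 members passed the filter on low counts. NLP2 stood at 24.2 to 63.5 CPM in the wild-type libraries and at 3.62 to 16.8 CPM in nlp2, where CPM is counts per 1e+06 scaled reads. In each condition the nlp2 libraries lay below the wild-type libraries, at 0.277 of the wild-type level untreated, 0.197 starved and 0.283 after nitrate, so NLP2 reads remained in the line labelled a knock-out. The levels of 5 photosynthesis genes were summed as markers of green tissue. In wild type the sum was 20600 to 24400 CPM untreated, 8590 to 10300 CPM starved and 7600 to 7940 CPM after nitrate. In nlp2 it was 16200 to 23700, 6880 to 8980 and 6300 to 7000 CPM in the same order. After nitrate the genotypes did not overlap in this sum, and its part in the genotype comparisons was not tested. The sum of 6 root markers was 127 to 137, 137 to 146 and 156 to 172 CPM in wild type. In nlp2 the root sum was 116 to 134, 130 to 162 and 139 to 159 CPM. The sum of 4 seed storage genes was at most 7.17 CPM. In both genotypes the nitrate library numbered 1 stood farthest from the other 2 of its group. The untreated nlp2 library numbered 1 also stood apart. The chi-square of its counts per degree of freedom was 38 and 28.7 against the other 2, which had 16.5 between them. For nlp2 nitrate library 1 these values were 42.6, 31.2 and 6.36. Whole seedlings mix many cell types, so a change in the number of cells of a type and a change in RNA per cell cannot be told apart.

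NF-YA2 (AT3G05690, chr3:1676504-1679061, reverse strand) was the member that led to the choice of the family, and its levels are described first. In wild type its 3 libraries stood at 57.9, 52.5 and 53.8 CPM untreated, at 195, 194 and 190 CPM starved, and at 155, 145 and 143 CPM after nitrate. In nlp2 they stood at 114, 108 and 110 CPM untreated, at 254, 252 and 247 CPM starved, and at 186, 178 and 194 CPM after nitrate. Every nlp2 library lay above every wild-type library of the same condition, and the gap was widest before starvation in fold terms. The log2 difference between the genotypes was 1.01 ± 0.07 untreated (2.02-fold) and 0.38 ± 0.07 starved (1.30-fold), where ± after a log2 value is its standard error. The starved level was 1.82 ± 0.07 above the untreated one for wild type and 1.19 ± 0.07 above it for nlp2, on the log2 scale, a difference of -0.63 ± 0.10. These values chose the family and carry no test here. By edgeR's quasi-likelihood test, 0 of 21347 genes were called in that difference (0%), with 395 at an unadjusted p under 0.05, and DESeq2 called 2. They were AT5G37990, named after its value was seen, and NF-YA2, for which this is no test because the family was chosen on it.

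**Figure D1:**
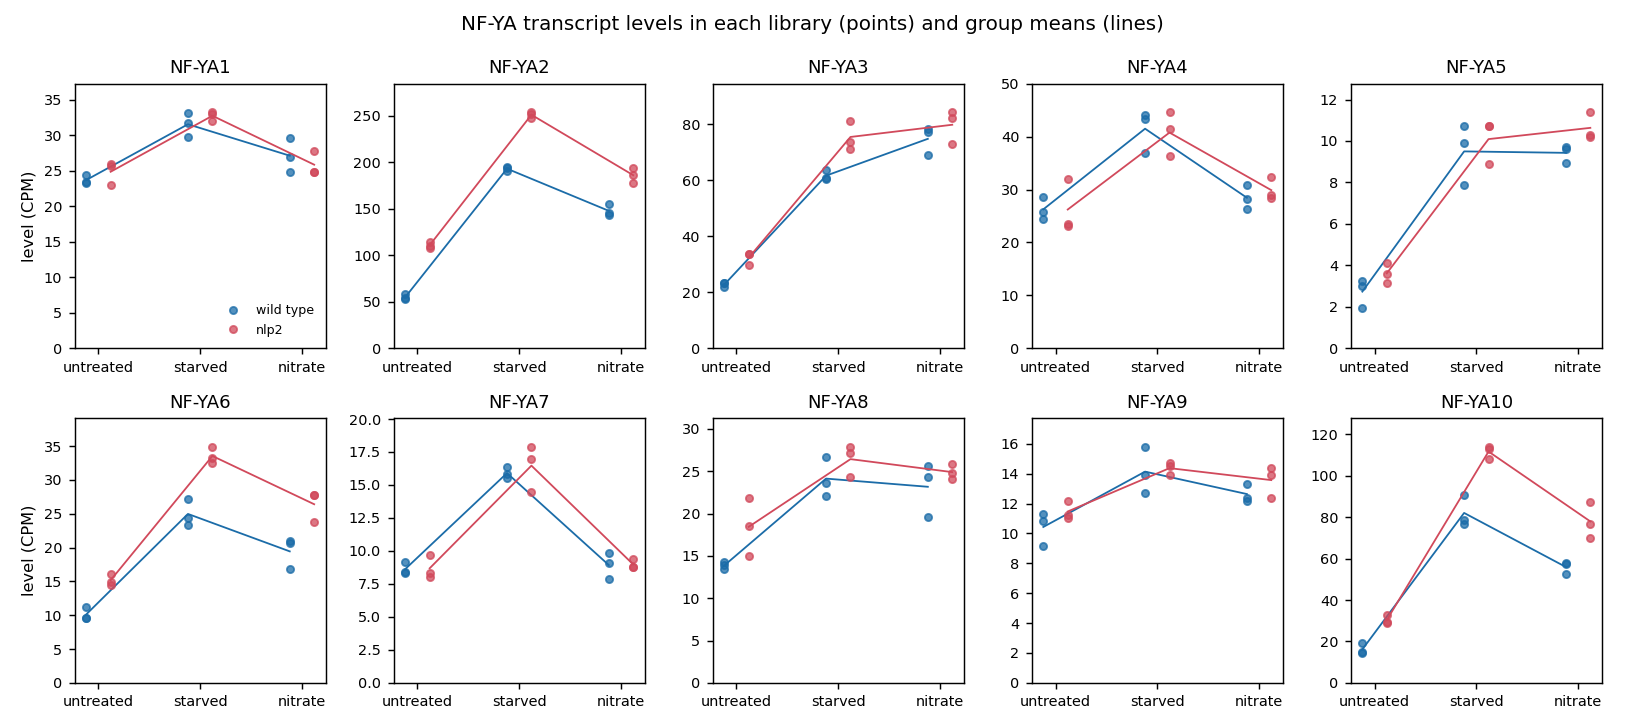
Level of each NF-YA transcript (CPM, vertical axis, from 0) in the 3 conditions (horizontal axis), with 1 point per library and lines joining the group means, for wild type (blue) and nlp2 (red). The untreated mean is the lowest of the 3 in both genotypes for all 10 transcripts. After nitrate the points of NF-YA4 and NF-YA7 are near the untreated ones while those of NF-YA3 and NF-YA5 are not, and the nlp2 points of NF-YA2, NF-YA6 and NF-YA10 lie above those of wild type in all 3 conditions.

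Transcripts across the family were higher after nitrogen starvation. The 9 members other than NF-YA2 were all called higher in starved than in untreated seedlings in both genotypes (edgeR, adjusted p below 0.05), where 13.8% of all genes tested were called higher in wild type and 14.5% in nlp2. The median log2 change over these 9 members was 0.88 for wild type and 0.92 for nlp2, beside 0.02 over all genes in each. In the same libraries the summed green markers were lower, and the range of the summed root markers was somewhat higher in both genotypes (values above). Their part in the result was not tested.

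NF-YA10 (AT5G06510, chr5:1984823-1987064, forward strand) showed the largest change of the family in wild type. Its wild-type libraries went from 19.2, 14.2 and 15.1 CPM untreated to 90.9, 76.8 and 78.4 CPM starved, a log2 change of 2.34 ± 0.12 (5.06-fold, edgeR adjusted p = 1.74e-10). In nlp2 it went from 29.3, 32.6 and 29.1 CPM to 114, 113 and 108 CPM, a change of 1.87 ± 0.11 (3.67-fold, adjusted p = 9.97e-10). The starved libraries lay far above the untreated ones in both genotypes, and the nlp2 libraries above those of wild type at both points.

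NF-YA5 rose from between 1.96 and 3.22 CPM to between 7.87 and 10.7 CPM in wild type, a log2 change of 1.78 ± 0.17, and by 1.48 ± 0.16 in nlp2. NF-YA3 rose by 1.44 ± 0.09 in wild type, from 21.9, 23.1 and 23.1 CPM to 63.6, 60.4 and 60.9 CPM. In nlp2 the rise of NF-YA3 was 1.22 ± 0.09. NF-YA6 rose by 1.30 ± 0.11 and 1.14 ± 0.10 in wild type and nlp2. For these 3 members the groups did not overlap.

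NF-YA7, the closest relative of NF-YA4 in coding sequence, rose by 0.88 ± 0.11 in wild type and 0.92 ± 0.11 in the mutant. NF-YA4 rose by 0.66 ± 0.12 and 0.64 ± 0.12, and NF-YA8 by 0.80 ± 0.13 and 0.52 ± 0.12. The smallest changes were those of NF-YA9, at 0.43 ± 0.11 and 0.33 ± 0.11, and of NF-YA1, at 0.41 ± 0.08 and 0.40 ± 0.08. Both are below 1.5-fold, although their starved and untreated libraries did not overlap. The call of NF-YA9 in nlp2 (adjusted p = 0.0256) was lost without untreated replicate 1 or 3 or starved replicate 2 or 3, with adjusted p from 0.0643 to 0.0812, and when only the groups compared were fitted (0.0845).

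After nitrate only some members were called lower than in starved seedlings. Of the 9 members other than NF-YA2, NF-YA4, NF-YA6, NF-YA7 and NF-YA10 were called lower after nitrate than in starved seedlings of wild type, where 10.2% of all genes tested were called lower. NF-YA3 was higher, where 11.2% of all genes were. In nlp2 the same 4 members and NF-YA1 were called lower, where 9.23% of all genes were, and no member was called higher, where 9.36% were. NF-YA5, NF-YA8 and NF-YA9 were not called in either genotype, with log2 values from -0.16 to 0.07. The medians over the 9 members were -0.22 in wild type and -0.34 in nlp2, beside 0 and -0.01 over all genes.

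NF-YA7 fell most, from 15.8, 15.5 and 16.4 CPM to 9.81, 7.89 and 9.09 CPM in wild type (log2 change -0.83 ± 0.11, edgeR adjusted p = 1.73e-05). In nlp2 it went from 17.9, 14.5 and 17 CPM to 8.79, 8.78 and 9.36 CPM (-0.87 ± 0.11, adjusted p = 1.37e-05). The starved and nitrate libraries did not overlap in either genotype. NF-YA4 fell by 0.54 ± 0.12 in wild type (adjusted p = 0.00284) and by 0.45 ± 0.12 in nlp2 (adjusted p = 0.0132). The nlp2 call of NF-YA4 was lost without starved replicate 1 or nitrate replicate 2 or 3, with adjusted p from 0.0539 to 0.0715.

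The log2 difference of NF-YA2 between nitrate and starved seedlings was -0.39 ± 0.07 for wild type and -0.43 ± 0.07 for nlp2, given without a test because the starved libraries entered the choice of the family. NF-YA10 fell from the starved levels above to 57.8, 52.5 and 57.5 CPM in wild type (-0.55 ± 0.11, adjusted p = 0.000838) and to 87.4, 69.7 and 76.7 CPM in nlp2 (-0.51 ± 0.11, adjusted p = 0.00177). For both genes the nitrate libraries lay between the untreated and the starved ones without overlap.

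NF-YA6 fell by 0.36 ± 0.10 in wild type (adjusted p = 0.0148) and by 0.34 ± 0.10 in nlp2 (adjusted p = 0.0208). Its wild-type call was lost without starved replicate 1 (0.0837) or nitrate replicate 1 (0.0961). Its nlp2 call was lost without starved replicate 1 or 3 or nitrate replicate 1, with adjusted p from 0.0509 to 0.103. The rise of NF-YA3 in wild type, to 68.9, 78.3 and 77.2 CPM, was 0.28 ± 0.08 (adjusted p = 0.0212), and was lost without starved or nitrate replicate 2 or 3 of wild type, with adjusted p from 0.07 to 0.0844.

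NF-YA1 fell by 0.34 ± 0.08 in nlp2 (adjusted p = 0.00672). In wild type its value was -0.22 ± 0.08 and was not called (adjusted p = 0.072), but it was called with the replicate number as a block (0.0209) and without nitrate replicate 1 (0.0358). In the genotype difference of the nitrate response the 10 members had values from -0.20 to 0.10, and 0 of 21347 genes were called (0%) by edgeR, with 313 at an unadjusted p under 0.05 and DESeq2 called 2, AT3G44800 and AT4G32950, named after their values were seen.

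After nitrate most of the family stood above its untreated level. NF-YA3, NF-YA5, NF-YA6, NF-YA8 and NF-YA10 were called higher after nitrate than in untreated seedlings in both genotypes (edgeR), where 21.7% of all genes were called higher in wild type and 19.6% in nlp2. NF-YA2 was also above its untreated libraries, by 1.43 ± 0.07 in wild type and 0.75 ± 0.07 in nlp2, given without a test. The log2 differences of the 5 were 1.72 ± 0.09 and 1.30 ± 0.09 for NF-YA3 in wild type and nlp2, 1.77 ± 0.17 and 1.55 ± 0.16 for NF-YA5, and 1.79 ± 0.11 and 1.36 ± 0.11 for NF-YA10. For NF-YA6 they were 0.94 ± 0.11 and 0.80 ± 0.10, and for NF-YA8 0.74 ± 0.13 and 0.43 ± 0.12. The nlp2 call of NF-YA8 (adjusted p = 0.00944) was lost without untreated replicate 3 (0.0582) and when only the groups compared were fitted (0.0508).

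NF-YA7 was the member nearest to its untreated level, at 0.05 ± 0.11 in both genotypes (adjusted p = 0.755 and 0.772), and its untreated and nitrate libraries overlapped. The wild-type value of NF-YA4 was 0.12 ± 0.12 (adjusted p = 0.486) and its nlp2 value 0.19 ± 0.12 (0.244). Without untreated replicate 1 of nlp2, whose level of 32 CPM lay above the 23.2 and 23.5 CPM of the others, the nlp2 value was 0.36 and was called (0.0192). NF-YA1 was at 0.19 and 0.05 and NF-YA9 at 0.27 and 0.24. None of these 4 values was called. The untreated and nitrate libraries did not overlap for NF-YA9 in either genotype or for NF-YA1 in wild type. With the replicate number as a block the wild-type values of NF-YA1 (0.0288) and NF-YA9 (0.0326) were called, and that of NF-YA1 was also called without nitrate replicate 2 (0.0391).

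Read against the sites, the members without a miR169 match were NF-YA4 and NF-YA7, and both fell with nitrate in both genotypes and were not called against the untreated level afterwards. Of the 8 members with a match, NF-YA3, NF-YA5 and NF-YA8 were not called lower after nitrate, NF-YA6 and NF-YA10 fell and stayed above the untreated level, and NF-YA2 had values of the same kind, given without a test. NF-YA1 and NF-YA9 also hold a match, rose with starvation and were not called against the untreated level after nitrate, and NF-YA1 fell with nitrate in nlp2. NF-YA9 was not called lower with nitrate in either genotype, and its nitrate libraries lay above the untreated ones without overlap. The miRNAs themselves were not measured. In these poly(A) libraries the 14 miR169 precursor loci together gave 49 reads over all 18 libraries, 36 of them on MIR169A and 12 on MIR169B, and 11 loci had none. A count of 0 allows up to 3 reads per locus, for counting error only, so a change in the precursors was not detectable at this depth.

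**Figure D2:**
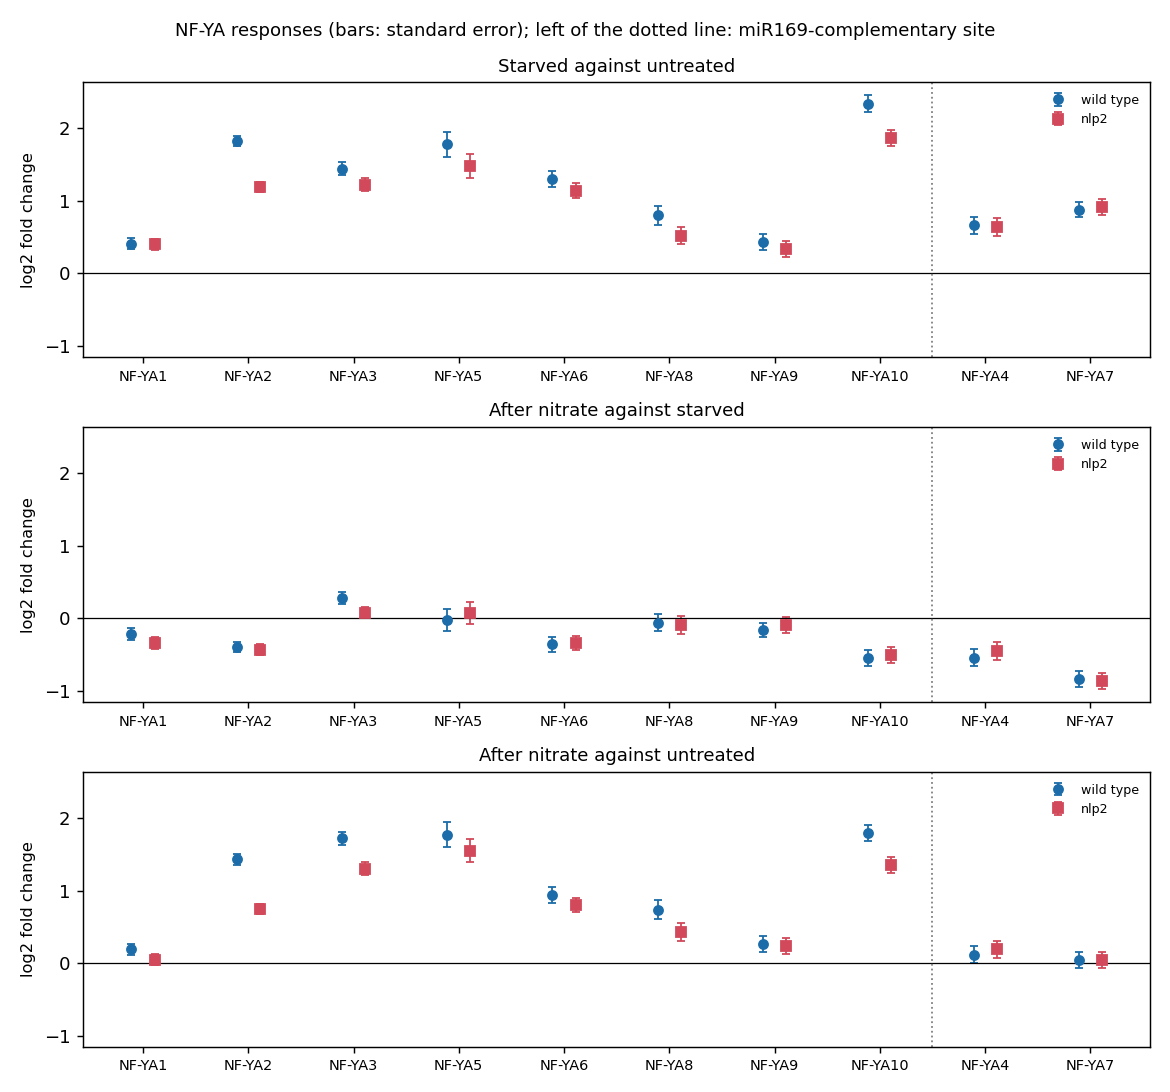
Log2 fold change (vertical axis) of the 10 NF-YA transcripts in 3 comparisons, wild type (blue circles) and nlp2 (red squares), with bars of 1 standard error from the edgeR fit. Members left of the dotted line hold a miR169-complementary site and NF-YA4 and NF-YA7 at the right hold none. All values are above 0 with starvation, and after nitrate NF-YA4 and NF-YA7 are at 0.05 to 0.19 against untreated. Of the members with a site, NF-YA1 is at 0.19 and 0.05 there and NF-YA9 at 0.27 and 0.24, while NF-YA10 is at 1.79 and 1.36.

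The genotypes were compared within each condition. Before starvation NF-YA3, NF-YA6 and NF-YA10 were called higher in nlp2 than in wild type, 3 of the 9 members other than NF-YA2, where 0.272% of all genes tested were called higher. The untreated libraries of NF-YA10, given above, differed by 0.90 ± 0.11 (1.87-fold, edgeR adjusted p = 0.000337). Those of NF-YA6 were 11.2, 9.54 and 9.59 CPM in wild type and 14.5, 16.1 and 14.9 CPM in nlp2, a log2 difference of 0.58 ± 0.11 (adjusted p = 0.0196). Those of NF-YA3 were 29.7, 33.6 and 33.6 CPM in nlp2, against the wild-type values above, a difference of 0.51 ± 0.09 (adjusted p = 0.00891). For each of the 3 genes every nlp2 library lay above every wild-type library. No member was called lower, where 0.089% of all genes were, and NF-YA4 and NF-YA7 were at 0.00 ± 0.12 and 0.01 ± 0.12. NF-YA8, at 0.41 ± 0.13, was not called (adjusted p = 0.338), although its groups did not overlap.

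The calls differed between fits, while over all settings the log2 difference was 0.82 to 1.05 for NF-YA10, 0.48 to 0.56 for NF-YA3 and 0.54 to 0.67 for NF-YA6. Fitted on the 6 untreated libraries alone, NF-YA10 (adjusted p = 0.0715), NF-YA3 (0.279) and NF-YA6 (0.327) were not called. NF-YA10 remained called whichever untreated library was left out. NF-YA3 was not called without wild-type replicate 1 (0.055), and NF-YA6 was not called without replicate 2 or 3 of either genotype, with adjusted p from 0.0587 to 0.117.

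In starved seedlings 0 of the 9 members other than NF-YA2 were called between genotypes by edgeR, with 3 at an unadjusted p under 0.05, where 0.281% of all genes were called higher in nlp2. NF-YA10 was 0.44 ± 0.11 higher in nlp2 (adjusted p = 0.113), NF-YA6 0.43 ± 0.10 (0.0962) and NF-YA3 0.29 ± 0.08 (0.246), each without overlap between the groups. NF-YA10 was called with the replicate number as a block (0.0169), by DESeq2 (0.015) and when only the groups compared were fitted (0.0305). NF-YA6 was called by DESeq2 (0.0223) and with only the groups compared (0.0424). In the genotype difference of the starvation response NF-YA10 was at -0.47 ± 0.16, NF-YA5 at -0.30 ± 0.23 and NF-YA8 at -0.28 ± 0.18, and no member was called by edgeR.

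After nitrate NF-YA6 (0.44 ± 0.10, edgeR adjusted p = 0.0455) and NF-YA10 (0.48 ± 0.11, 0.0403) were called higher in nlp2, where 0.365% of all genes were. NF-YA2 was 0.33 ± 0.07 higher, given without a test because its standard error also drew on the libraries that chose the family. For each of these 3 genes the groups did not overlap. The other 7 members had values from -0.07 to 0.17. The calls were close to the threshold. NF-YA6 was lost without any 1 of the nitrate libraries except nlp2 replicate 1 (adjusted p from 0.0651 to 0.23), and NF-YA10 without any 1 except nlp2 replicate 2 (0.0765 to 0.182). Both calls were lost without both libraries numbered 1, an alternative chosen after seeing the data, with adjusted p of 0.0848 and 0.195 and differences of 0.43 and 0.42. Neither was called when only the groups compared were fitted.

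**Figure D3:**
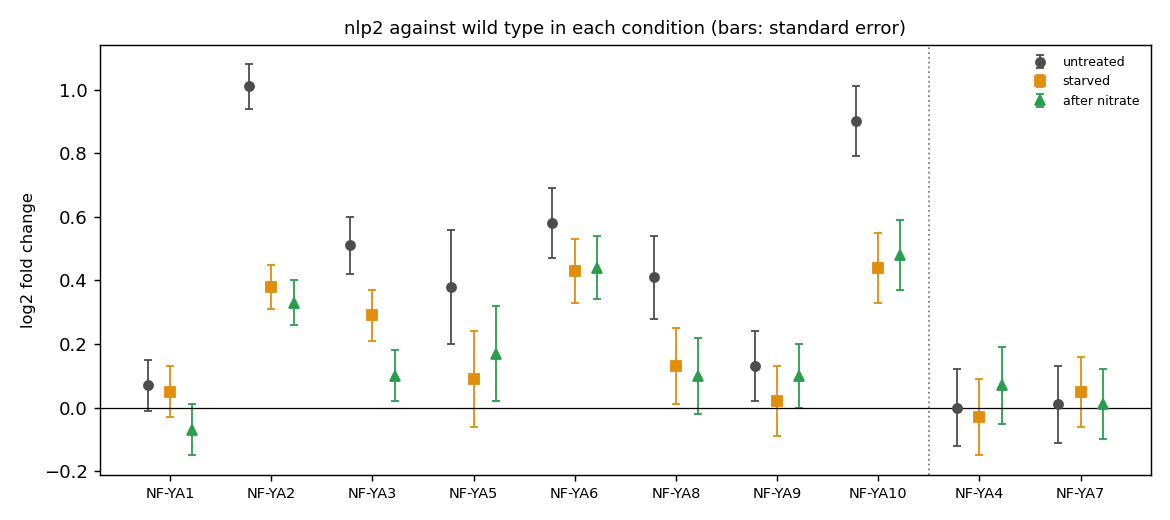
Log2 difference between nlp2 and wild type (vertical axis) for the 10 NF-YA transcripts in untreated (grey circles), starved (orange squares) and nitrate-supplied seedlings (green triangles), with bars of 1 standard error. The dotted line sets apart NF-YA4 and NF-YA7, which hold no miR169-complementary site and lie between -0.03 and 0.07. NF-YA1 (-0.07 to 0.07) and NF-YA9 (0.02 to 0.13), which hold one, are also near 0, and NF-YA10 reaches 0.90 untreated and NF-YA2, on which the family was chosen, 1.01.

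Levels were compared between members per kilobase of gene model. NF-YA2 had the highest level of the family and NF-YA5 the lowest in all 6 groups. In untreated wild type NF-YA2 stood at 37.4 ± 1.91 CPM per kilobase (SD, n = 3), followed by NF-YA4 at 27.4 ± 2.23 and NF-YA1 at 18.6 ± 0.492, and NF-YA5 stood at 1.86 ± 0.457. The next in order, NF-YA3 and NF-YA10, overlapped each other, as did NF-YA8, NF-YA7, NF-YA9 and NF-YA6 from neighbour to neighbour. In starved wild type NF-YA2 stood at 132 ± 1.95, and NF-YA10 had passed NF-YA4, at 60.2 ± 5.68 against 43.4 ± 4.11. After nitrate in wild type NF-YA3 at 44.3 ± 3.05 and NF-YA10 at 41.1 ± 2.17 followed NF-YA2 at 101 ± 4.32 and overlapped each other.

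In untreated nlp2 the order began with NF-YA2 at 75.5 ± 1.94 CPM per kilobase, NF-YA4 at 27.4 ± 5.23 and NF-YA10 at 22.3 ± 1.42. NF-YA2 made up 25.6% to 25.7% of the summed NF-YA level per kilobase in the untreated wild-type libraries and 35.3% to 36.9% in those of untreated nlp2. In starved seedlings its share was 34.5% to 37.3% in wild type and 37.8% to 39.1% in nlp2. The shares in untreated nlp2 lay inside the range of those in starved wild type. They rest on the NF-YA2 counts that chose the family, so these shares are a description and carry no test.

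The summed level of the partner subunits moved differently from that of NF-YA. The summed NF-YA level went from 145 ± 7.77 CPM per kilobase untreated to 368 ± 16.3 starved and 295 ± 8.54 after nitrate in wild type (SD, n = 3), and from 209 ± 6.51 to 447 ± 11.3 and 349 ± 11.3 in nlp2. In the same order the NF-YB sum was 121 ± 6.43, 101 ± 5.77 and 86.2 ± 2.14 for wild type. For nlp2 it was 113 ± 8.5, 95.6 ± 6.08 and 76.6 ± 5.95. The NF-YC sum was 142 ± 8.14, 137 ± 10.1 and 142 ± 24.6 for wild type and 138 ± 11.8, 135 ± 13.7 and 140 ± 27.8 for nlp2. The wide spread after nitrate came with replicate 1, at 170 and 172, where the other nitrate libraries were at 122 to 129. In wild type the NF-YA and NF-YC libraries overlapped before starvation, and in starved seedlings of both genotypes every NF-YA sum lay above every NF-YB and NF-YC sum. The NF-YA sums include NF-YA2, whose untreated and starved values chose the family, so they are a description. NF-YA2 made up 37.4 of the untreated and 132 of the starved mean in wild type, and 75.5 and 172 in nlp2.

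Of 10 NF-YB genes 7 passed the filter, and of 10 NF-YC genes 6 did. With starvation no NF-YB or NF-YC gene was called higher by edgeR, where 13.8% of all genes in wild type and 14.5% in nlp2 were. NF-YB3, NF-YB8, NF-YC1 and NF-YC4 were called lower in both genotypes, where 15.3% of all genes in wild type and 15.7% in nlp2 were. NF-YB3, which with NF-YB2 is known for promoting flowering in long days, fell by 0.67 ± 0.12 and 0.76 ± 0.12 in wild type and nlp2. NF-YC4, also known from flowering, fell by 0.80 ± 0.14 and 0.90 ± 0.14, from 37.9 ± 3.37 to 21.7 ± 1.16 CPM in wild type (SD, n = 3). NF-YB8 fell by 0.58 ± 0.12 and 0.53 ± 0.12.

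NF-YC1 fell by 0.39 ± 0.12 and 0.33 ± 0.12. Its calls were lost without untreated replicate 1 or starved replicate 2 or 3 of wild type (adjusted p from 0.0576 to 0.0909) and without untreated replicate 1 or 3 or starved replicate 1 or 2 of nlp2 (0.0782 to 0.183). With the replicate number as a block NF-YB2 was called higher in wild type (0.27, adjusted p = 0.0318) and nlp2 (0.31, 0.0146). NF-YC2, at 1.15 ± 0.52 and 0.90 ± 0.50 (adjusted p = 0.117 and 0.2), was called when only the groups compared were fitted (0.000206 and 0.00628).

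After nitrate NF-YB2 fell by 0.98 ± 0.13 and 0.96 ± 0.13 against starved seedlings, and NF-YB3 by 0.64 ± 0.12 and 0.65 ± 0.12. Both were called lower in each genotype by edgeR, where 10.2% of all genes in wild type and 9.23% in nlp2 were. NF-YC1 was called lower in wild type (-0.38 ± 0.12, adjusted p = 0.0299), a call lost without starved replicate 1 (0.164) or nitrate replicate 1 (0.0602) or 2 (0.117), and in nlp2 with the block (-0.32, adjusted p = 0.0137). NF-YB5 was called lower in nlp2 on few reads, 15, 20 and 7 in the starved libraries and 5, 4 and 1 after nitrate. That call was lost without starved replicate 2 or nitrate replicate 2 or 3, with adjusted p from 0.0561 to 0.0666. With the block NF-YC3 was called higher, at 0.18 in wild type (0.0485) and 0.23 in nlp2 (0.0151). Against untreated seedlings NF-YB2, NF-YB3, NF-YC1 and NF-YC4 were called lower after nitrate in both genotypes by edgeR. The log2 differences in wild type and nlp2 were -1.31 and -1.41 for NF-YB3 and -1 and -1.05 for NF-YC4. For NF-YC1 they were -0.77 and -0.65, and for NF-YB2 -0.72 and -0.65. None of these calls was lost in any alternative. In the same comparison edgeR called NF-YC3 higher after nitrate in nlp2 (0.39 ± 0.09, adjusted p = 0.00141) and wild type (0.22 ± 0.09, 0.0487). There 19.6% and 21.7% of all genes were called higher. The wild-type call was lost in 9 of 12 alternatives. NF-YC2 was also called higher than untreated in wild type (1.75 ± 0.51, edgeR adjusted p = 0.0137). That call was lost without untreated replicate 1 (0.0535) or nitrate replicate 1 (0.0775), and when only the groups compared were fitted (0.0674). In nlp2 NF-YC2 was not called (1.16 ± 0.50, 0.0823), but it was by DESeq2 (0.0497) and without nitrate replicate 2 (0.0445) or 3 (0.042). NF-YC2 had 1 high nitrate library in each genotype, replicate 1, with 39.1 CPM for wild type and 38.3 CPM for nlp2, where the others had 11 to 17.2 CPM.

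**Figure D4:**
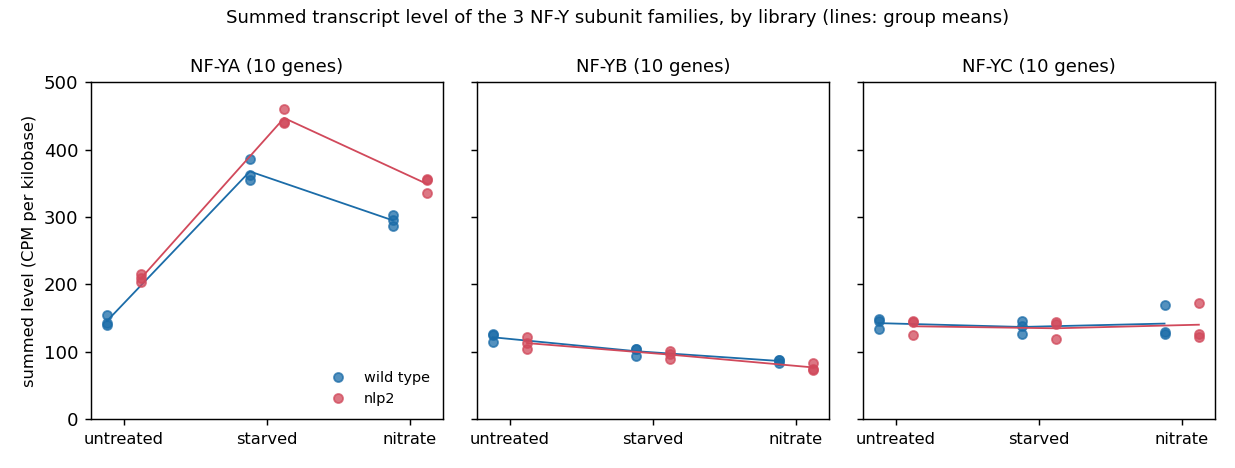
Summed transcript level of the 10 NF-YA, 10 NF-YB and 10 NF-YC genes (CPM per kilobase of gene model, vertical axis from 0) in the 3 conditions, with 1 point per library and lines through the group means, wild type blue and nlp2 red. NF-YA goes from 145 to 368 in wild type and from 209 to 447 in nlp2 with starvation, while the NF-YB means are lower and the NF-YC means lie between 135 and 142, with a nitrate library at 170 in wild type and at 172 in nlp2. The NF-YA sums include NF-YA2, on which the family was chosen.

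By Pearson's r, NF-YA10 was the gene whose pattern was most like that of NF-YA2. Likeness was measured as Pearson's r of log2 CPM over the 18 libraries among 17056 genes that reached a mean of 5 CPM in at least 1 group. The libraries share their conditions, so r is a description. NF-YA10 had an r of 0.985, the highest of all, and NF-YA6 0.971. The others were NF-YA8 at 0.918, NF-YA3 at 0.903, NF-YA5 at 0.898, NF-YA9 at 0.867, NF-YA1 at 0.769, NF-YA4 at 0.698 and NF-YA7 at 0.658. The 5 genes outside the family with the highest r were AT4G35160, annotated as an O-methyltransferase family protein (0.971), AT4G14060 (0.968), the carboxylesterase gene CXE18 (0.961), AT2G18360 (0.959) and LOG5, of the family of cytokinin-activating enzymes (0.959). Of these, AT4G35160 and LOG5 lie on chromosome 4 at 44.3 and 28.8 kb from NLP2, the mutated gene. AT4G14060 went from 6.19 ± 1.76 to 64.9 ± 6.43 CPM with starvation in wild type and from 16.9 ± 0.857 to 112 ± 10.1 CPM in nlp2 (SD, n = 3). By Spearman's rho AT2G18360 (0.979) lay above NF-YA10 (0.973). Only 1 of the 5, AT2G18360, was among the first 5 by Spearman's rho, and none was by r over the 6 group means.

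NF-YA2 and NF-YA10 are also close in sequence, with 70.9% identity of aligned coding sequence. The other closest pairs were NF-YA4 with NF-YA7 (72.7%), NF-YA3 with NF-YA8 (72.2%), NF-YA5 with NF-YA6 (65.9%) and NF-YA1 with NF-YA9 (54.3%). The 250 bases before the annotated starts of NF-YA2 and NF-YA10 are shown because these members moved together and share a stretch. The letters are those of the TAIR10.1 genome, 5′ to 3′ on the gene's strand, with the motif ACGTG on either strand in capitals.
NF-YA2 (chr3:1679062-1679311, reverse strand): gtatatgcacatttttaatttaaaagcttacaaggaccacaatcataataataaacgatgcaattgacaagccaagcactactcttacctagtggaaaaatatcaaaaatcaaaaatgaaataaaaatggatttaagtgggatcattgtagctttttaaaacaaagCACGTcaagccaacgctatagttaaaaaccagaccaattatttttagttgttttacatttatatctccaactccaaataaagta
NF-YA10 (chr5:1984573-1984822, forward strand): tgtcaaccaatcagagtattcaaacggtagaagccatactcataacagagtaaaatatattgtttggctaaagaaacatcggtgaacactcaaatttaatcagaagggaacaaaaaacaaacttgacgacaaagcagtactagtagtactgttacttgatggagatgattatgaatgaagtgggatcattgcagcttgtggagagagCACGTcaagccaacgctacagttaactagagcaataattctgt
The longest run common to both was agCACGTcaagccaacgcta, 20 bases that begin 86 bases before the start of NF-YA2 and 45 bases before that of NF-YA10. Among the 45 pairs of NF-YA promoters, each taken by its longest shared run, the next pair had 13 bases and the lowest 7.

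Of the motifs searched on both strands of these windows, ACGTG, the core of G-box and ABA-response elements, was found in 8 of 10 NF-YA promoters and in 22.9% of 27443 promoters. The promoters without it were those of NF-YA4 and NF-YA8. A palindromic CACGTG counts once on each strand. CCAAT, the sequence NF-Y binds, was in 5 of 10 and in 46% of all promoters, and GNATATNC, the motif of phosphate starvation regulators, was in that of NF-YA2 alone and in 5.46% of all. A match describes the letters of the window and not a bound site.

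Some counts carry limits from neighbouring or related genes. NF-YA5 (AT1G54160) overlaps AT1G54150 by 154 bases on the other strand, and NF-YA9 (AT3G20910) overlaps AT3G20920 by 6 bases. Non-coding transcripts overlap NF-YA5 by 490 and NF-YA6 by 585 bases. The use of strand in counting was not given in the sources used here, so reads of these overlaps cannot be assigned. AT1G54150 and AT3G20920 were not called in any of the 11 comparisons. The longest run shared by the transcripts of 2 members was 45 bases, between NF-YA4 and NF-YA7, and reads that aligned equally well at another place were taken out before counting.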

How the data were processed

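RNA was measured by single-end sequencing of stranded, poly(A)-selected libraries, per the labels' protocols. The authors deposited whole-number read counts per gene model, made with sam2pkm after removal of reads with equally good hits elsewhere, per the file headers. That removal, 1.9% to 2.17% of mapped reads, lowers the counts of near-identical copies. The submitters' processing notes name Bowtie2 and the build TAIR10. Versions, annotation and read length were not given in the sources used here.

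Members and lists were chosen with earlier results of these data known. Counts were fitted in R 4.3.3 with edgeR 4.0.16 (filterByExpr with minimum 10 and total 15, TMM, quasi-likelihood F-test, 1 mean per group, 18 libraries, 12 residual degrees of freedom). This left 21347 genes. Genes were called at a Benjamini-Hochberg adjusted p below 0.05 within each of 11 comparisons. TMM factors were 0.902 to 1.14. Levels between genes use the deposited model length. Alternatives were DESeq2 1.42.0, median-ratio scaling, no filter, the groups compared alone, each library left out, both nitrate libraries numbered 1 left out (chosen after seeing the data) and the replicate number as a block.

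In 13 libraries the labels give a planting date, and the 3 dates follow the replicate number, which therefore pairs libraries. The other 5, all of wild type, carry none. Deviations from the group means had a median r of 0.243 over the 45 pairs of the same number (-0.108 to 0.625) and of -0.0783 over the 90 other pairs (-0.493 to 0.208). Each date holds 1 library per group at most. The dates give all conditions the same interval, although the protocol gives 2 ages.

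The text names all NF-YA genes, the called NF-YB and NF-YC genes (up to 4 per list and comparison by smallest p, with others whose call changed between settings added after their values were seen) and the 5 genes most like NF-YA2. Sequences are from RefSeq TAIR10.1, in which all 10 NF-YA genes and 14 miR169 loci matched by identifier. Sites were scanned in 52059 transcripts.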

Additional observations from a re-analysis of the deposited data

How the results depend on the processing

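The numbers of calls below are over the 9 members other than NF-YA2, whose values chose the family and which carries no test. Those with starvation, with nitrate and after nitrate against untreated stayed within 1.5 times under the alternatives, except with nitrate in nlp2. There 5 were called, and 3 without starved replicate 1. Without 1 library at a time the numbers were 9 to 9 in wild type and 8 to 9 in nlp2 with starvation. They were 4 to 5 and 3 to 5 with nitrate, and 5 to 6 and 4 to 6 after nitrate against untreated. No log2 change of a called NF-YA gene changed sign. Of 1390 gene-level repeats, NF-YA2 included, 1318 kept their side of the threshold, 58 lost a call and 14 gained one. The genotype calls were less stable, and the cause was not tested. Before starvation 3 of the 9 were called, 0 when only the groups compared were fitted, and 2 to 3 without 1 library. In starved seedlings 0 were called, but 2 by DESeq2, 1 with the replicate block, 2 with only the groups compared and 0 to 0 without 1 library. After nitrate 2 were called, 0 with only the groups compared, 0 to 1 without 1 library and 0 without both libraries numbered 1. In the genotype difference of the starvation response 0 were called by edgeR, by DESeq2 and with the replicate block. The replicate block changed the calls named with it in the text and no other call of these 9 members. Over all genes, the genotype comparisons called 77, 78 and 168 genes untreated, starved and after nitrate. DESeq2 called 157, 152 and 314, the replicate block 143, 137 and 360, and the groups alone 17, 168 and 104. Without 1 library the counts were 35 to 67, 37 to 59 and 81 to 201. Depth limits NF-YA5, with as few as 28 reads in a library, and the miR169 precursors.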
